A study of Rattus norvegicus with 12 samples.

Results

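The peptide hormone genes Gcg, Sst, Ppy, Pyy, Ghrl, Npy, Gal, Cck and Ucn3 were followed through clones of a rat beta-cell line that carry an IAPP transgene or an empty vector. They are 9 of the 18154 named genes of the arrays, chosen by symbol and not by their values. Each had a single gene-level row, and 41 exon-level probe sets from the same arrays carried their symbols. INS1E is an insulin-secreting line of rat pancreatic beta cells grown out of an insulinoma. The hIAPP clone carried a stable transgene for the human islet amyloid polypeptide, the rIAPP clone one for the rat polypeptide, and the control clone the empty vector pcDNA3. All the cells grew under geneticin in medium with 11.1 mM glucose, without any other treatment, and were harvested at day 3. Each clone gave 2 samples, lettered a and b, on 6 1-colour arrays. Every group is 1 clone, so the transgene and the other differences between clones cannot be told apart. The labels do not say if the samples of a clone came from separate cultures, and the p-values therefore reflect only how far such samples lay apart, which may be technical. The RNA is from bulk cultures, in which fewer cells of a type and less RNA per cell cannot be told apart.

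The islet divides its hormones among cell types. Alpha cells make glucagon from the Gcg precursor, delta cells make somatostatin (Sst), PP cells make pancreatic polypeptide (Ppy) and the rare epsilon cells make ghrelin (Ghrl). Npy, Pyy and Ppy encode a family of related peptides that act through the neuropeptide Y receptors, and galanin (Gal) and neuropeptide Y restrain insulin secretion. Cholecystokinin (Cck) is a gut hormone that drives pancreatic enzyme secretion. Urocortin 3 (Ucn3), of the corticotropin-releasing factor family, is made by mature beta cells in the mouse, where it is released with insulin and stimulates somatostatin release from delta cells.

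Ucn3, Npy and Gcg were the genes higher in the hIAPP clone than in the control, and their proximal promoters are shown to give the sequence around their start sites. They are RefSeq sequences of the GRCr8 assembly, from 250 bases before to 50 bases after the annotated start, written 5′ to 3′ along the gene. Capitals mark matches on either strand to 3 motifs, the TATA box TATAAA, the cyclic AMP response core TGACG and the GC box GGGCGG.
Ucn3, chr17:71219406-71219705, plus strand: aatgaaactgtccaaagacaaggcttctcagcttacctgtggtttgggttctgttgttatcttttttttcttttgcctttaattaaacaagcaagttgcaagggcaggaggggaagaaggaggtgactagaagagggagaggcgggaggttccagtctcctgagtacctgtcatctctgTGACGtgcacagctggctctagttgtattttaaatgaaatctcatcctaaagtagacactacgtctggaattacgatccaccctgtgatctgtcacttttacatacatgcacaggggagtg
Npy, chr4:80211861-80212160, plus strand: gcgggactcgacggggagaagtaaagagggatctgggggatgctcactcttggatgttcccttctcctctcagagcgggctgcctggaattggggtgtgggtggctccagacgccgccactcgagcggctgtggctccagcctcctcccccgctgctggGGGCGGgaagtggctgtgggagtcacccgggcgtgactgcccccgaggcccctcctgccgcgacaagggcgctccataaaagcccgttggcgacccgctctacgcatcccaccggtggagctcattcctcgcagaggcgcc
Gcg, chr3:67531484-67531783, minus strand: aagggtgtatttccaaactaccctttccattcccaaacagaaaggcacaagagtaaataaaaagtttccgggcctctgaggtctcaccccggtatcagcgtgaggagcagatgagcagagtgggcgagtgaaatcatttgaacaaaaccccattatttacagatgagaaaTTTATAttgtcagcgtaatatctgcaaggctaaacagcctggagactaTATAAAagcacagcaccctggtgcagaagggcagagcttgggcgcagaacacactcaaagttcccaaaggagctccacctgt
In the Ucn3 window TGACG lies at bases -71 to -67 from the start, and in the Npy window GGGCGG lies at -91 to -86. The Gcg window holds TATAAA at -32 to -27, and again on the opposite strand at -80 to -75. Such matches are common. Of 33469 promoters of the same length, 14.2% held TATAAA, 21.2% TGACG and 33.1% GGGCGG. Promoters of 8 of the 9 genes were in the table, and among these TATAAA stood in 3 (Gcg, Ppy and Gal), TGACG in 3 (Sst, Gal and Ucn3) and GGGCGG in 1 (Npy). A match is a description of the letters only.

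Iapp, the transfected gene, read 13.79 and 13.82 in hIAPP, 13.90 and 13.92 in rIAPP, and 13.76 and 13.72 in the control (log2 values of arrays a and b). Its log2 difference from the control was 0.06 in hIAPP (limma adjusted p = 0.406) and 0.17 in rIAPP (limma adjusted p = 0.0507), and neither passed. The rIAPP difference did pass in 4 alternatives, with an intensity trend (limma adjusted p = 0.000430), centred arrays (0.0324), bright genes only (0.0106) and neighbouring genes subtracted (0.0255). The arrays carry probes for rat genes, and whether they detect the human transcript was not tested. The Iapp values lay close to those of the brightest named gene of each array, at 14.057 to 14.115. Whether signals so near the top are compressed was not tested. Pearson's r across genes was 0.9987 to 0.9990 for arrays of the same clone and 0.9934 to 0.9955 for arrays of different clones. Apart from Ucn3 and Npy, all 10 measured markers of beta cells lay on every array above the 95th percentile of the olfactory and vomeronasal receptor genes. Those 1342 receptor genes served as a rough guide to low signal, and their 95th percentile lay between 7.09 and 7.27 on the 6 arrays. Which of them these cells use was not tested. The median of all named genes was higher, at 8.44 to 8.46, so most named genes exceed this level on every array.

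**Figure D1:**
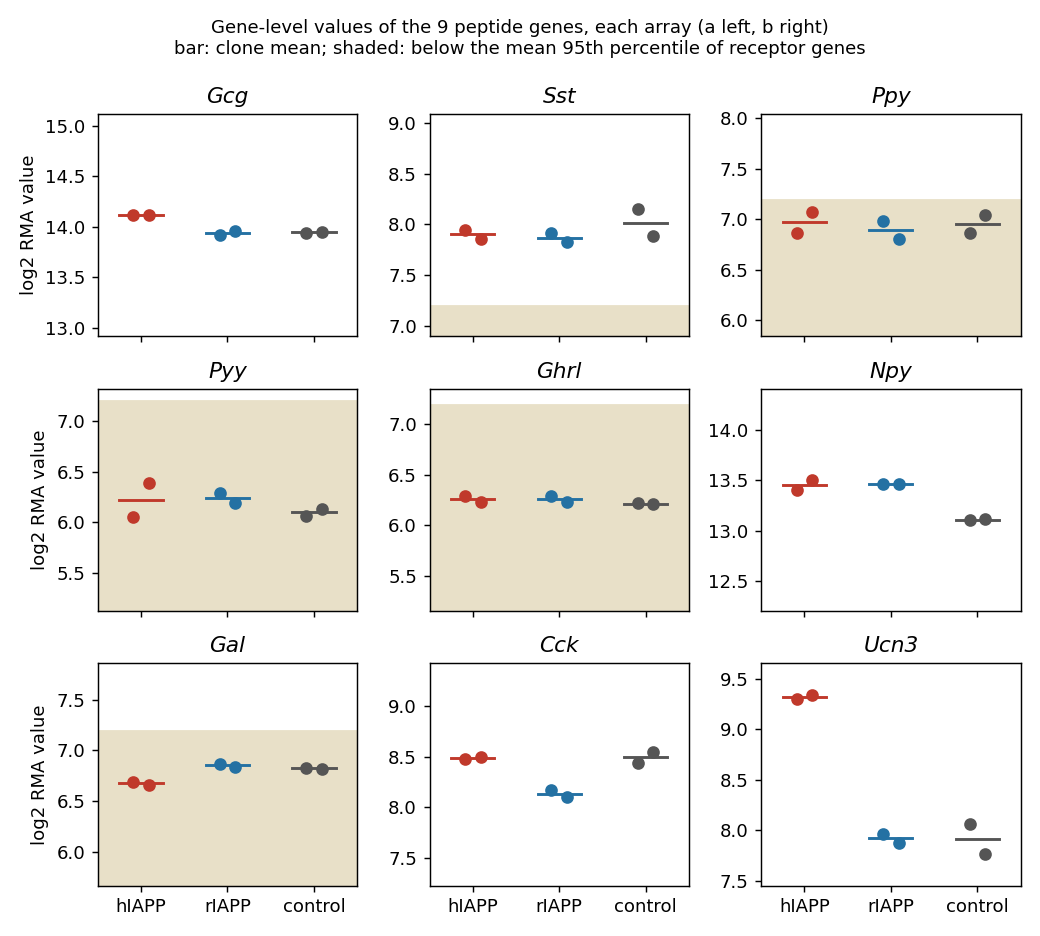
Gene-level log2 values of the 9 genes on each array, with hIAPP, rIAPP and control from left to right, arrays a and b as points and the clone mean as a bar, each panel spanning the same log2 range. The shaded area lies below the mean 95th percentile of olfactory and vomeronasal receptor genes: Ppy, Pyy, Ghrl and Gal lie inside it, and Ucn3 stands apart in hIAPP at 9.30 and 9.34.

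By that guide the 9 genes fell into 2 sets. Gcg, Npy, Sst, Cck and Ucn3 were above the receptor genes' 95th percentile in all 3 clones, and Ppy, Pyy, Ghrl and Gal in none. Gcg was the brightest of all named genes in the hIAPP arrays, at 14.11 in both, and its value was at or above that of at least 99.9% of named genes on every array. Npy was at or above 99.3% to 99.8% of named genes. Sst was at or above only 43.5% to 46.8% of them, Cck 46.4% to 51.1% and Ucn3 42.4% to 59.7%. Brightness also depends on a row's own probes, so these places are no order of transcript abundance. At the stricter 99th percentile, which lay between 8.30 and 8.41, only Gcg and Npy were above in all clones. Cck was then above in the hIAPP and control clones, and Ucn3 in the hIAPP clone.

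Calls were made at an adjusted p under 0.05 (Benjamini-Hochberg) in limma's moderated test, fitted and adjusted over all 18154 genes, and every gene-level adjusted p in the text comes from that test unless an alternative is named. In hIAPP minus control 3 of the 9 genes were called, all higher, where 19.0% of all genes were called, 10.1% higher and 8.92% lower. In rIAPP minus control 2 of 9 were called, 1 higher and 1 lower, against 16.0% of all genes (8.70% higher and 7.29% lower). In hIAPP minus rIAPP 3 of 9 were called, all higher in hIAPP, against 11.7% of all genes (6.11% higher and 5.56% lower). Both comparisons with the control use the same control arrays. The median log2 difference of the 9 genes was 0.05, 0.01 and 0.03 in these comparisons, and that of all genes was -0.01, -0.00 and -0.01.

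**Figure D2:**
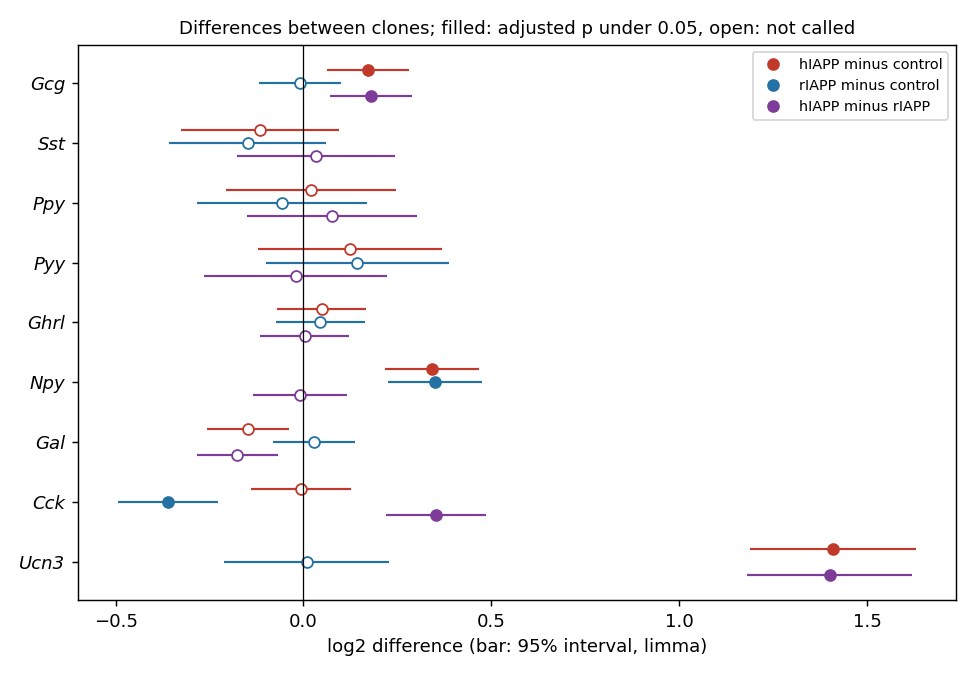
Log2 differences between clones for each of the 9 genes, with 95% intervals from limma; filled points were called at an adjusted p under 0.05 and open points were not. Ucn3 lies at 1.41 and 1.40 in the comparisons of hIAPP with control and with rIAPP, and at 0.01 in rIAPP minus control.

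Ucn3 was much higher in the hIAPP clone than in both other clones. It read 9.30 and 9.34 in hIAPP, 7.97 and 7.88 in rIAPP, and 8.06 and 7.76 in the control. Both hIAPP arrays stood apart from the other 4, while the rIAPP arrays lay within the range of the control arrays. The mean was 9.32 ± 0.03 in hIAPP, 7.92 ± 0.06 in rIAPP and 7.91 ± 0.21 in the control (SD, n = 2 each). The log2 difference of hIAPP from the control was 1.41, a 2.66-fold ratio (SE 0.0940, limma adjusted p = 7.55e-05), and 99.7% of all genes differed by less. From rIAPP it was 1.40, a 2.64-fold ratio (limma adjusted p = 0.000150). The rIAPP clone differed from the control by 0.01, with a 95% interval of -0.21 to 0.23. The gene has 1 exon-level probe set, with the same values as its gene-level row, so the exon level adds no second measurement of it.

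The genes whose centred values over the 6 arrays lay nearest to those of Ucn3 were Zfp9, Grpr, which encodes the receptor of gastrin-releasing peptide, and Kcnk16, which encodes a potassium channel of the islet. Their root mean square distances from Ucn3 over the 6 arrays were 0.0945, 0.114 and 0.120 on the log2 scale. All 3 were higher in hIAPP than in the control, by log2 differences of 1.51 for Zfp9, 1.40 for Grpr and 1.35 for Kcnk16. In rIAPP minus control the same genes differed by -0.03, 0.06 and -0.19. They were chosen for this likeness, so their differences are a description.

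Npy was higher in both IAPP clones than in the empty-vector control. It read 13.40 and 13.51 in hIAPP, 13.47 and 13.46 in rIAPP, and 13.11 and 13.12 in the control. The control arrays were below all 4 others, and the ranges of hIAPP and rIAPP overlapped. The log2 difference from the control was 0.34 in hIAPP (SE 0.0534, limma adjusted p = 0.00434) and 0.35 in rIAPP (SE 0.0534, limma adjusted p = 0.00495), ratios of 1.27 and 1.28. Between hIAPP and rIAPP the difference was -0.01, with a 95% interval of -0.13 to 0.12. With medians of exon-level probe sets in place of gene-level values the rIAPP difference was 0.30 and did not pass (limma adjusted p = 0.0703). Nearest to Npy over the arrays were mrpl24, a gene of the mitochondrial ribosome, at a distance of 0.0205, the chloride transporter gene Clcn7 at 0.0235 and Ifrd2 at 0.0271.

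The other genes of the neuropeptide Y family did not pass the test in any comparison. Ppy read 6.87 and 7.08 in hIAPP, 6.99 and 6.81 in rIAPP, and 6.87 and 7.04 in the control. Pyy read 6.05 and 6.39 in hIAPP, 6.29 and 6.19 in rIAPP, and 6.06 and 6.13 in the control. Both genes lay below the receptor genes' 95th percentile on every array, and their ranges in hIAPP and control overlapped. The 95% interval of the Ppy difference was -0.21 to 0.25 in hIAPP and -0.28 to 0.17 in rIAPP, and that of Pyy was -0.12 to 0.37 in hIAPP and -0.10 to 0.39 in rIAPP. The Pyy difference in hIAPP was 0.12, and it was called only when array a of hIAPP was left out (0.29, limma adjusted p = 0.0478).

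Gcg was slightly higher in hIAPP. It read 14.11 and 14.11 in hIAPP, 13.91 and 13.96 in rIAPP, and 13.94 and 13.95 in the control. The hIAPP arrays were above the other 4, and the rIAPP and control arrays overlapped. The log2 difference of hIAPP was 0.17 from the control (SE 0.0466, limma adjusted p = 0.0418) and 0.18 from rIAPP (SE 0.0466, limma adjusted p = 0.0496), ratios of 1.13 each. These calls are marginal. Against the control the call held in 4 of 14 alternatives and against rIAPP in 2 of 14, and both ended when any of the 6 arrays was left out, with adjusted p of 0.0703 to 0.160 against the control and 0.0841 to 0.230 against rIAPP, at differences of 0.16 to 0.20. Nearest to Gcg were Baz1b, which encodes a chromatin remodelling factor, at a distance of 0.00925, Prr13 at 0.0120 and Nemp2 at 0.0129.

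At the exon level the difference of Gcg in hIAPP was largest at 1 of its 6 probe sets. At this level, adjusted over 166557 probe sets, 3 of the 41 were called in hIAPP minus control, where 1.50% of all probe sets were called. Of the 41, 0 were called by limma in rIAPP minus control, where 0.822% of all probe sets were called and 7 of the 41 had an unadjusted p under 0.05. With an intensity trend in limma's prior 4 were called there, all of Npy. Ucn3 alone was called in hIAPP minus rIAPP, where 0.278% were called. Gcg probe set 17772692 read 12.83 and 12.85 in hIAPP, 11.99 and 12.01 in rIAPP, and 11.90 and 12.03 in the control. Its log2 difference from the control was 0.87 in hIAPP (limma adjusted p = 0.0335) and 0.04 in rIAPP. From rIAPP, hIAPP differed by 0.84 at this probe set (limma adjusted p = 0.0683). The other 5 Gcg probe sets had mean values of 13.91 to 14.25 in all clones, close to the brightest named probe sets of the arrays, at 14.44 to 14.52. Their differences of hIAPP from the control were 0.08 to 0.24 and none was called. Whether signals near the top of the range are compressed was not tested.

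**Figure D3:**
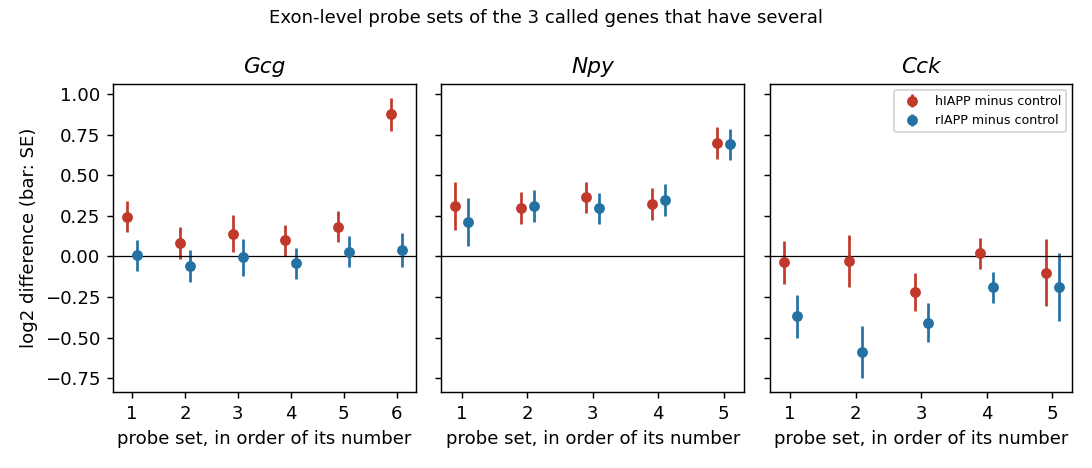
Log2 differences from the control at each exon-level probe set of Gcg, Npy and Cck, in hIAPP and in rIAPP, with the standard error as bars. The last probe set of Gcg stands at 0.87 in hIAPP and 0.04 in rIAPP, and the last of Npy at 0.70 and 0.69.

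For Npy the differences from the control at all 5 probe sets were above 0 in both IAPP clones. Probe set 17783547 read 12.16 and 12.15 in hIAPP, 12.12 and 12.18 in rIAPP, and 11.49 and 11.44 in the control. It differed from the control by 0.70 in hIAPP (limma adjusted p = 0.0462) and by 0.69 in rIAPP (limma adjusted p = 0.0585). The other 4 had differences of 0.30 to 0.37 in hIAPP, and of 0.21 to 0.35 in rIAPP. At the exon level the third call was the Ucn3 probe set (limma adjusted p = 0.0210 against the control and 0.0434 against rIAPP). Leaving out any of the 6 arrays left 0 of these exon-level calls in limma, with 6 to 8 of the 41 probe sets at an unadjusted p under 0.05 in hIAPP minus control, and at most 174 of all probe sets were then called.

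Cck was lower in the rIAPP clone. It read 8.48 and 8.50 in hIAPP, 8.17 and 8.10 in rIAPP, and 8.44 and 8.55 in the control. The rIAPP arrays were below the other 4, and the hIAPP arrays lay within the range of the control. The log2 difference from the control was -0.36 in rIAPP (SE 0.0571, limma adjusted p = 0.00601) and -0.01 in hIAPP, with a 95% interval of -0.14 to 0.13. The hIAPP clone was higher than rIAPP by 0.35 (limma adjusted p = 0.00774). All 5 exon-level probe sets of Cck were below 0 in rIAPP minus control, from -0.59 to -0.19, and none was called. Without array b of rIAPP the gene-level calls ended, at -0.33 from the control (limma adjusted p = 0.0547) and 0.32 between hIAPP and rIAPP (limma adjusted p = 0.0674). With medians of exon-level probe sets the difference from the control was -0.22 and did not pass either (limma adjusted p = 0.487), and that between hIAPP and rIAPP was 0.14 (limma adjusted p = 0.721). Nearest to Cck were Rgs14, which encodes a regulator of G protein signalling, at a distance of 0.0244, the cyclin gene Ccna1 at 0.0282 and Tmem14a at 0.0321.

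Somatostatin, ghrelin and galanin transcripts were not called in any comparison. Sst read 7.95 and 7.86 in hIAPP, 7.91 and 7.83 in rIAPP, and 8.15 and 7.88 in the control. Its clones overlapped, and its 95% interval was -0.32 to 0.09 in hIAPP and -0.36 to 0.06 in rIAPP. Ghrl read 6.29 and 6.23 in hIAPP, 6.29 and 6.23 in rIAPP, and 6.22 and 6.21 in the control, all below the receptor genes' 95th percentile, and its difference from the control was 0.05 in both clones, with intervals of -0.07 to 0.17 in hIAPP and -0.07 to 0.16 in rIAPP. Gal read 6.69 and 6.66 in hIAPP, 6.86 and 6.84 in rIAPP, and 6.83 and 6.82 in the control, also below that level. The hIAPP arrays were the lowest for Gal. Its differences of -0.15 from the control (SE 0.0464, limma adjusted p = 0.0676) and -0.18 from rIAPP (limma adjusted p = 0.0526) did not pass. With each array centred on its own median, the difference from rIAPP was -0.19 and passed (limma adjusted p = 0.0466).

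The glucagon receptor gene differed from the control by more than any of the 9 peptide genes. Of 22 listed receptor and binding-protein genes, 17 were measured. In hIAPP minus control 2 were higher and 5 lower, in rIAPP minus control 1 higher and 3 lower, and in hIAPP minus rIAPP 3 higher and 1 lower. Over all genes 19.0% were called in hIAPP minus control, 16.0% in rIAPP minus control and 11.7% in hIAPP minus rIAPP. The median difference of the 17 was -0.03, -0.00 and 0.03 in these comparisons, beside -0.01, -0.00 and -0.01 over all genes. Npy6r, Galr3, Cckar and the corticotropin-releasing factor receptors, of which Crhr2 binds urocortin 3, were not analysed here.

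Gcgr, the glucagon receptor, read 8.49 and 8.48 in hIAPP, 8.26 and 8.32 in rIAPP, and 10.71 and 10.73 in the control. Its log2 difference from the control was -2.23 in hIAPP (SE 0.0484, limma adjusted p = 1.76e-06) and -2.43 in rIAPP (limma adjusted p = 5.61e-07). It was higher in hIAPP than in rIAPP by 0.20 (limma adjusted p = 0.0403), a call that ended when any of the 6 arrays was left out (limma adjusted p of 0.0682 to 0.210). Glp1r encodes the receptor of the glucagon-like peptide that is cut from the same precursor, and it moved the opposite way. It read 13.04 and 13.06 in hIAPP, 13.06 and 13.06 in rIAPP, and 12.60 and 12.63 in the control. It rose by 0.44 in hIAPP (limma adjusted p = 0.000706) and by 0.45 in rIAPP (limma adjusted p = 0.000808). For neither receptor did the arrays of an IAPP clone overlap those of the control.

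Both measured galanin receptors were called lower in both clones. Galr1 read 8.68 and 8.84 in hIAPP, 9.003 and 8.937 in rIAPP, and 9.44 and 9.49 in the control. Its difference from the control was -0.70 in hIAPP (limma adjusted p = 0.000426) and -0.49 in rIAPP (limma adjusted p = 0.00293). The rIAPP call ended with medians of exon-level probe sets (-0.54, limma adjusted p = 0.0920). Galr2 read 10.32 and 10.53 in hIAPP, 9.90 and 9.91 in rIAPP, and 10.80 and 10.88 in the control. Its difference was -0.42 in hIAPP (limma adjusted p = 0.00777) and -0.93 in rIAPP (limma adjusted p = 0.000236), and hIAPP was above rIAPP by 0.52 (limma adjusted p = 0.00482).

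Of the 5 somatostatin receptors only Sstr3 was called. It read 10.47 and 10.50 in hIAPP, 11.02 and 11.01 in rIAPP, and 10.91 and 11.00 in the control, which put hIAPP below the control (log2 difference -0.47, limma adjusted p = 0.000836) and below rIAPP (-0.53, limma adjusted p = 0.000785). Sstr2, at 10.58 and 10.68 in hIAPP, 10.54 and 10.60 in rIAPP, and 10.58 and 10.73 in the control, overlapped between clones. Of the neuropeptide Y receptors, Npy1r was higher in hIAPP by 0.39 from the control (limma adjusted p = 0.00847) and by 0.39 from rIAPP (limma adjusted p = 0.0125), at low values of 6.14 and 6.22 in hIAPP, 5.69 and 5.88 in rIAPP, and 5.75 and 5.82 in the control. Cckbr, the cholecystokinin B receptor, was lower in hIAPP (-0.38, limma adjusted p = 0.0113), at 6.69 and 6.59 in hIAPP, 6.83 and 6.74 in rIAPP, and 7.11 and 6.93 in the control. All arrays had Npy1r and Cckbr below the receptor genes' 95th percentile. The calls of both against the control ended without array b of hIAPP or without array a of the control, and that of Npy1r against rIAPP without array b of hIAPP or array a of rIAPP, with adjusted p of 0.0534 to 0.0766. With medians of exon-level probe sets the Npy1r difference from the control was 0.08 (limma adjusted p = 0.778), and with neighbouring genes subtracted it was 0.16 (limma adjusted p = 0.181). The Cckbr call ended with those medians too (limma adjusted p = 0.318). Galr2, Npy1r and Cckbr in hIAPP minus control fall outside the rule for named genes and were chosen after their values were seen.

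**Figure D4:**
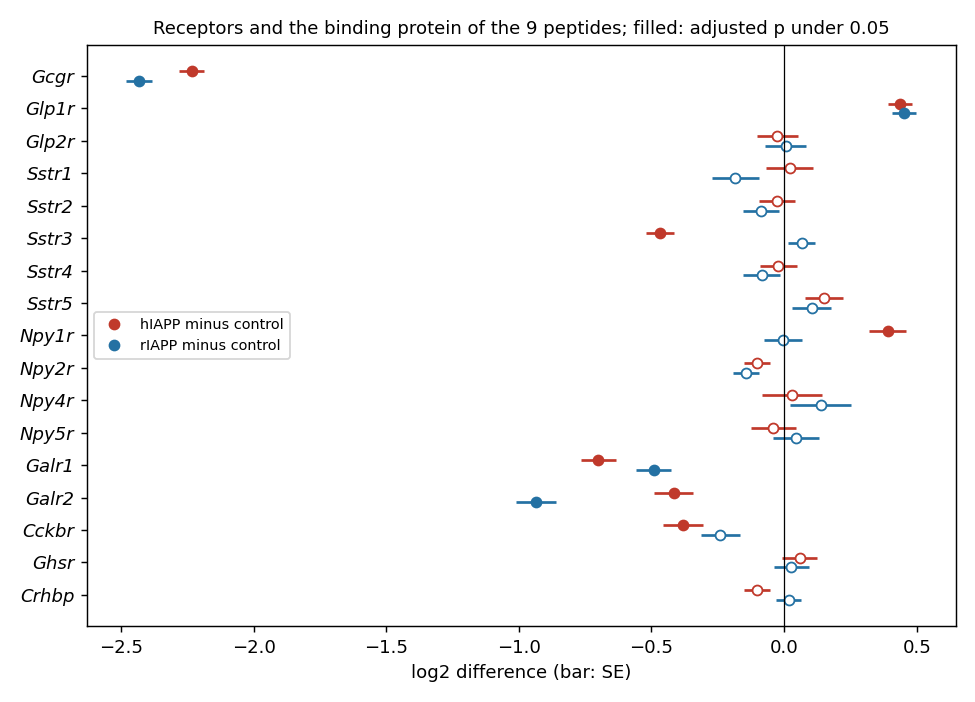
Log2 differences from the control of the 17 measured receptor and binding-protein genes in hIAPP and rIAPP, with the standard error as bars; filled points were called at an adjusted p under 0.05. Gcgr lies at -2.23 in hIAPP and -2.43 in rIAPP, and Glp1r at 0.44 in hIAPP and 0.45 in rIAPP.

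Enzymes that cut, trim, amidate, acylate or degrade peptide hormones were also read. Of 23 measured, 0 were higher and 7 lower in hIAPP minus control, 2 higher and 6 lower in rIAPP minus control, and 0 higher and 5 lower in hIAPP minus rIAPP. Of all genes, 10.1% were called higher and 8.92% lower in hIAPP minus control, 8.70% and 7.29% in rIAPP minus control, and 6.11% and 5.56% in hIAPP minus rIAPP. Qpct, which forms the pyroglutamate end of some peptides, differed from the control by -1.11 in hIAPP and -0.88 in rIAPP. The proprotein convertase gene Pcsk5 differed by -0.71 in hIAPP and -0.56 in rIAPP. Scg5, the chaperone of the convertase that releases glucagon, read 12.65 and 12.54 in hIAPP, 12.52 and 12.48 in rIAPP, and 12.98 and 13.05 in the control, differences of -0.42 in hIAPP and -0.51 in rIAPP. The gene of that convertase, Pcsk2, was not called. Its differences from the control were -0.06 in hIAPP (limma adjusted p = 0.464) and -0.02 in rIAPP (limma adjusted p = 0.835). The convertase gene Pcsk6 and the dipeptidyl peptidase gene Dpp7 were lower in hIAPP than in rIAPP, with log2 differences of -0.43 and -0.37. The Dpp7 call ended with medians of exon-level probe sets (limma adjusted p = 0.212). The median of the 23 was -0.09, -0.04 and -0.04 in the comparisons, beside -0.01, -0.00 and -0.01 over all genes. At 0 higher calls, limma's unadjusted p under 0.05 gave 1 higher in hIAPP minus control and 2 in hIAPP minus rIAPP. Pcsk1 and Cpe were not analysed here.

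Among 29 measured transcription factors of the islet lineages, 3 were higher and 8 lower in hIAPP minus control, 3 higher and 5 lower in rIAPP minus control, and 2 higher and 7 lower in hIAPP minus rIAPP, against 19.0%, 16.0% and 11.7% of all genes called in either direction. Foxo1 read 11.07 and 11.11 in hIAPP, 10.98 and 10.97 in rIAPP, and 10.41 and 10.46 in the control, and was higher by 0.65 in hIAPP and 0.54 in rIAPP. Nkx6-1, a factor of beta-cell identity, differed from the control by -0.42 in hIAPP, and Rfx3 and Isl1, which act in several islet cell types, by -0.37 and -0.34. Mafa, an activator of insulin genes, differed in the other direction, by 0.21 in hIAPP (limma adjusted p = 0.0477) and 0.35 in rIAPP (limma adjusted p = 0.00758). The rIAPP call of Mafa ended without array a of rIAPP (limma adjusted p = 0.0595) or array a of the control (0.0506), and its hIAPP call, which lies outside the rule for named genes, held in 5 of 14 alternatives and ended without any array except a of hIAPP (up to 0.182). Fev, a factor of serotonin neurons that islet endocrine cells also use, differed by -0.61 in rIAPP. With medians of exon-level probe sets the calls of Nkx6-1 (limma adjusted p = 0.0755) and Rfx3 (0.0830) in hIAPP and of Fev (0.0505) and Mafa (0.0619) in rIAPP ended. The median of the 29 was -0.08, -0.02 and -0.06, beside -0.01, -0.00 and -0.01 over all genes.

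Of 59 other regulatory peptide genes that were measured, 2 were higher and 11 lower in hIAPP minus control, 0 higher and 7 lower in rIAPP minus control, and 4 higher and 2 lower in hIAPP minus rIAPP. Over all genes the shares called were 19.0%, 16.0% and 11.7% in either direction. At 0 higher calls in rIAPP minus control, 1 was higher at limma's unadjusted p under 0.05. Gast, whose product gastrin shares its active end with cholecystokinin, differed from the control by -0.74 in hIAPP and by -0.36 in rIAPP (limma adjusted p = 0.0456), where the call ended without either array of rIAPP or array a of the control (up to 0.211). Ins1 read 12.60 and 12.74 in hIAPP, 12.82 and 12.65 in rIAPP, and 13.30 and 13.19 in the control, differences of -0.57 in hIAPP and -0.51 in rIAPP. Ins2 differed from the control by -0.74 in hIAPP and -0.64 in rIAPP. Both Ins2 calls ended with medians of exon-level probe sets (limma adjusted p = 0.157 in hIAPP and 0.287 in rIAPP). They also ended when all rows, named or not, were tested (limma adjusted p = 0.0699 in hIAPP and 0.111 in rIAPP). The hIAPP call of Ins2 ended without array a of hIAPP (-0.53) or array a of the control (-0.63). Its rIAPP call ended without array b of rIAPP (-0.50), array a of the control (-0.53) or array b of the control (-0.75). Edn3, an endothelin gene, differed from the control by -0.43 in hIAPP and -0.98 in rIAPP, and the granule protein gene Chgb by -0.19 in hIAPP (limma adjusted p = 0.0275) and -0.64 in rIAPP. The hIAPP call of Chgb ended when any of the 6 arrays was left out (limma adjusted p of 0.0535 to 0.127). The rIAPP value of Gast and the hIAPP value of Chgb lie outside the rule for named genes. The median of the 59 was -0.06, -0.07 and 0.01, beside -0.01, -0.00 and -0.01 over all genes.

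Of 12 measured beta-cell markers, Ucn3 and Npy among them, 6 were higher and 3 lower in hIAPP minus control, 5 higher and 3 lower in rIAPP minus control, and 2 higher and 1 lower in hIAPP minus rIAPP. The shares of all genes called in either direction were 19.0%, 16.0% and 11.7% in these comparisons. Markers of the cell types that normally make the other hormones were read too. For alpha cells, 5 of 9 measured markers other than Gcg exceeded the receptor genes' 95th percentile on all arrays, and the log2 of the summed signal of the 9 was 14.57 in hIAPP, 14.58 to 14.61 in rIAPP and 14.45 to 14.46 in the control. Of these markers Pou3f4, an alpha-cell transcription factor, had mean values of 4.79 in hIAPP, 4.92 in rIAPP and 4.89 in the control, while Slc7a2, an arginine transporter gene that many cells use, had 13.33 in hIAPP, 13.13 in rIAPP and 12.69 in the control. Gc, the vitamin D-binding protein gene, went the other way in hIAPP, at 13.52 in hIAPP, 13.72 in rIAPP and 13.72 in the control, with log2 differences of -0.20 from the control (limma adjusted p = 0.0209) and -0.20 from rIAPP (0.0299). Its call against the control ended without either array of hIAPP or of the control (up to 0.0994), and that against rIAPP without any of the 6 arrays (up to 0.144). Slc7a2 and Gc were picked from the list after their values were seen. For delta cells 2 of 4 markers other than Sst exceeded that level, and their factor Hhex lay at 6.67 in hIAPP, 6.77 in rIAPP and 6.84 in the control. For PP cells 3 of 5 exceeded it, for epsilon cells 1 of 2, for acinar cells 4 of 13, for duct cells 3 of 7, for enteroendocrine cells 1 of 5, for leukocytes 1 of 8 and for fibroblasts and endothelium 4 of 7. The leukocyte sum was 11.06 to 11.11 in hIAPP, 11.04 in rIAPP and 10.51 to 10.54 in the control. The 1 marker above the level on all arrays was Cd4. Cd68 exceeded it on every array except b of the control. It read 7.27 and 7.29 in hIAPP, 7.53 and 7.49 in rIAPP, and 7.22 and 7.06 in the control. Of the 8 leukocyte markers, 2 were called higher and 0 lower in hIAPP minus control, and the same in rIAPP minus control. Of all genes 10.1% and 8.70% were called higher there. At limma's unadjusted p under 0.05 also 0 were lower. The epsilon-cell sum was 10.82 to 10.87 in hIAPP, 10.81 to 10.84 in rIAPP and 10.36 to 10.38 in the control. Most of it was Acsl1, with means of 10.76 in hIAPP, 10.75 in rIAPP and 10.26 in the control. Mboat4 had 6.64, 6.55 and 6.55 in the same order. The PP-cell sum was 13.10 to 13.12 in hIAPP, 12.98 to 12.99 in rIAPP and 13.23 to 13.30 in the control. Most of it was Etv1, with means of 12.837 in hIAPP, 12.805 in rIAPP and 13.036 in the control. Id4 went the other way in hIAPP, at 9.60 in hIAPP, 8.52 in rIAPP and 9.29 in the control. The fibroblast and endothelial sum was 11.76 to 11.86 in hIAPP, 11.64 to 11.68 in rIAPP and 12.17 in the control. Most of it was Thy1, with means of 11.36 in hIAPP, 11.13 in rIAPP and 11.82 in the control. The delta-cell, acinar, duct and enteroendocrine sums lay between 9.33 and 12.35. Those of hIAPP overlapped the control for delta, acinar and duct markers and lay below it for enteroendocrine markers. Those of rIAPP lay below the control for all of these types. The enteroendocrine sum was 9.39 to 9.56 in hIAPP, 9.33 to 9.42 in rIAPP and 9.58 to 9.59 in the control. The delta-cell sum was 9.36 to 9.51 in rIAPP and 9.52 to 9.54 in the control. For acinar markers the sums were 10.65 to 10.69 in rIAPP and 10.75 to 10.78 in the control. For duct markers they were 12.13 to 12.30 in rIAPP and 12.33 to 12.35 in the control. The beta-cell sum was 16.18 to 16.20 in hIAPP, 16.19 to 16.24 in rIAPP and 16.14 to 16.19 in the control. Ptprc, which defines leukocytes, lay at 5.64 in hIAPP, 5.74 in rIAPP and 5.71 in the control. The part of other cell types in the differences of the 9 genes was not tested.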

How the data were processed

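The 6 arrays were deposited as log2 values at gene level (36685 rows) and exon level (220231 probe sets). The authors made these log2 values with Affymetrix Expression Console and RMA, per the submitters' processing notes, without versions or a genome build. RMA subtracts background, brings arrays to a common distribution and combines probes into 1 value a row. No further normalisation was applied. A platform table gave 1 symbol to 18511 gene-level rows, several to 575 and none to 17599. Rows with 1 symbol were kept, with the brightest row per symbol, which gave 18154 genes; 166557 exon-level probe sets had 1 symbol.

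Group means of the 3 clones were fitted over all 6 arrays with limma 3.58.1, run in R 4.3.3 (3 residual and 4.39 prior degrees of freedom), with Benjamini-Hochberg adjustment over all genes or probe sets. The exon level rereads the same arrays and adds no replicate. The small number of arrays limits the precision. The procedure was tested on simulated data. The members and lists were chosen with earlier results of these data known. The text names all 9 members, Iapp and the 3 nearest genes to each called member. From each list and comparison it draws on up to 4 called genes by size of difference. Of these, Anpep, Pcsk4, Hnf4a, Onecut1, Foxa1 and Tac3 were left out of the sections above. Some called differences of hIAPP minus rIAPP were left out there too. They were those of Edn3 (0.55), Chgb (0.44), Fev (0.39), Nkx6-1 (-0.36), Gast (-0.38) and Qpct (-0.22). Sstr2 and Pcsk2, which were not called, were named outside this rule. Genes named with the cell type markers lie outside this rule. Alternatives were an intensity trend, array centring, only bright rows, all rows named or not, only the 2 groups compared, medians of exon-level probe sets, subtraction of a running median over 51 neighbouring genes, the sample letter as a block, and each array left out. Promoter sequences are from RefSeq.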

Additional observations from a re-analysis of the deposited data

Results flagged for a closer look

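The effects of both transgenic clones against the same control differed for 3 of the 9 genes, by the test of the difference itself, which is the comparison of hIAPP with rIAPP and called 11.7% of all genes. The control arrays cancel in it. For Ucn3 the difference of hIAPP from the control exceeded that of rIAPP by 1.40 on the log2 scale (limma adjusted p = 0.000150), for Cck by 0.35 (limma adjusted p = 0.00774) and for Gcg by 0.18 (limma adjusted p = 0.0496). The Ucn3 difference was called in all 13 alternatives that gave a value, that of Cck in 11 of 13 and that of Gcg in 2 of 14.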

How the results depend on the processing

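Over the alternatives, 59 of 80 pairs of a named gene and a comparison were called at first, and 31 of these were called in every alternative that gave a value. Npy against the control in hIAPP was called in 14 of 14 alternatives and Ucn3 in 13 of 13. Only genes at or above the median level gave 1 called member in rIAPP minus control and 1 in hIAPP minus rIAPP; Cck and Ucn3 lie below that level and were then not fitted. Medians of exon-level probe sets gave 0 and 1, and 1336, 949 and 527 called genes in all in the comparisons of hIAPP with control, rIAPP with control and hIAPP with rIAPP. In the count of 0, limma's adjusted p was 0.0703 for Npy and 0.487 for Cck. They also turned Npy1r to -0.00 (-0.0045) and Gcgr to -0.01 (-0.0084) in hIAPP minus rIAPP. Testing all rows, named or not, gave 1659 and 1260 called genes in rIAPP minus control and hIAPP minus rIAPP. An intensity trend gave 7, 4 and 2 called member probe sets at exon level in the 3 comparisons, and only bright probe sets gave 1 in rIAPP minus control. The 99th percentile of the receptor genes left 2 members above it in all clones, against 5 at the 95th. The cause of these changes was not tested.

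Leaving out 1 array gave 2 to 3, 1 to 2 and 1 to 2 called members and 1999 to 2871, 1217 to 2862 and 922 to 1779 called genes in the 3 comparisons, and 0 called member probe sets in each. The lowest counts of members came without array b of rIAPP (1 in rIAPP minus control, 1 in hIAPP minus rIAPP). Deviations of same-letter arrays from their clone means correlated at 0.000164, -0.0414 and 0.000800, below the 0.1 set for treating the letters as a pairing. This shows no deviation shared across genes, but cannot tell whether same-letter samples were handled together. With the letter as a replicate block 2, 2 and 2 members and 3113, 2562 and 1800 genes were called, and 0 member probe sets at exon level. The Gcg calls ended under it (limma adjusted p = 0.0670 and 0.0804). With 2 arrays per clone, a difference that was not called is not shown to be absent.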
